A study of Rattus norvegicus with 6 samples.

Results

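Interleukins and interleukin receptors outside the IL-1, IL-6 and IL-18 core were examined in rat brain tissue after a bleed into the brain. The genes were all those whose rat symbol begins with Il and a digit, apart from 13 set aside by name (Il1a, Il1b, Il1rn, Il1r1, Il1r2, Il1rap, Il1rl1, Il33, Il6, Il6r, Il6st, Il11 and Il18), 12 of which are on the array. This left 58 genes with 63 probes, of 15443 gene symbols and 30367 probes in all, 28 of them cytokines (counting the antagonist Il36rn) and 30 receptors or binding proteins. Symbols were assigned through the RefSeq transcript named for each probe, and measured values played no part in the choice.

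Total RNA was measured on 6 single-colour Agilent arrays, 1 array per sample. The 3 sham samples are brain tissue of sham-operated rats. The 3 ICH samples come from rats with intracerebral hemorrhage, and their tissue is labelled as peripheral. All 6 carry the value day 1 under the label for age, no label gives strain or sex or says how the bleed was made, and the series design text, alone among the sources, calls the second group transfected. The labels call the samples of a group biological replicates without saying whether each is 1 animal. The comparison asks which transcripts differ around a hematoma, the clot left by the bleed.

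Interleukins are secreted messengers by which leukocytes, and in the brain also glia, endothelium and neurons, signal over short distances. Most act through paired receptor chains that recruit JAK kinases and STAT factors, so that a chain shared by several receptors (the common gamma chain Il2rg, the IL-10 receptor chain Il10rb, Il4r) can limit the response to several ligands at once. The IL-17 and IL-36 branches signal instead through NF-kB adaptors, and some members (Il13ra2, Il22ra2, Il18bp, Il36rn) are decoys or antagonists that blunt a ligand.

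The arrays differed little in overall quality and much in spread within ICH. Of non-control spots 81.8% to 85.4% were well above background, the flag by which the scanner software marks a measurable spot, and 0 of the 726 spot readings of these 63 probes were saturated. A row's standard deviation had a median of 0.14 in sham and 0.31 in ICH, and for the interleukin genes measured the medians were 0.22 and 0.65. Levels below are log2 values relative to the mean of the 3 sham arrays for the same probe, given in the order of the array numbers, and differences are ICH minus sham ± SE with n = 3 arrays per group, tested with limma and adjusted by Benjamini-Hochberg over 22179 rows, 1 for each gene symbol or unnamed probe. Levels of different probes are not compared, and at 3 against 3 the number of arrays limits the precision.

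Of the 58 genes, 37 were well above background on at least 3 of the 6 arrays and are called measured here. They were 13 of 28 cytokines and 24 of 30 receptors and binding proteins, together 63.8% of the genes, beside 83.9% of all symbols on the array. No interleukin gene passed an adjusted p under 0.05, and neither did any of the 22179 rows (0 called, 0.0%). At an unadjusted p under 0.05 by limma, 2 of the 37 were higher in ICH (Il20rb and Il16), where 6.15% of all rows were, and Il20rb entered the 37 through its ICH arrays alone, so that 1 (Il16) was left among the 31 genes measured on all 6 arrays. On the other side, 3 were lower (Il1rapl2, Il13ra2 and Il20ra), where 8.56% were. The groups did not overlap, with ICH higher, for the same 2 genes (again 1 on all 6 arrays), beside 11.0% of all rows, and with ICH lower for 6 (Il1rapl2, Il13ra2, Il20ra, Il10ra, Il9 and Il15), beside 16.5% of all rows. Each of these counts is near or below what the share of all rows would give among 37 genes. The median difference was −0.07 over the 37 genes and −0.04 over all rows, with 17 genes higher and 20 lower. The zero point matters here: centring the arrays on spike-in probes instead of the 75th percentile moved the median of all rows to 0.39 and turned 12 of the 37 genes from lower to higher (Il10rb, Il15, Il17ra, Il1rapl1, Il21, Il22, Il22ra2, Il2rb, Il2rg, Il34, Il3ra and Il9r). The directions of these 12 are therefore not settled, and quantile and median centring turned Il17b and Il23a only. At an unadjusted p under 0.05 over all rows, 1364 were higher and 1899 lower, against 839 and 2272 with median centring and 5026 and 183 with spike-in centring.

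**Figure D1:**
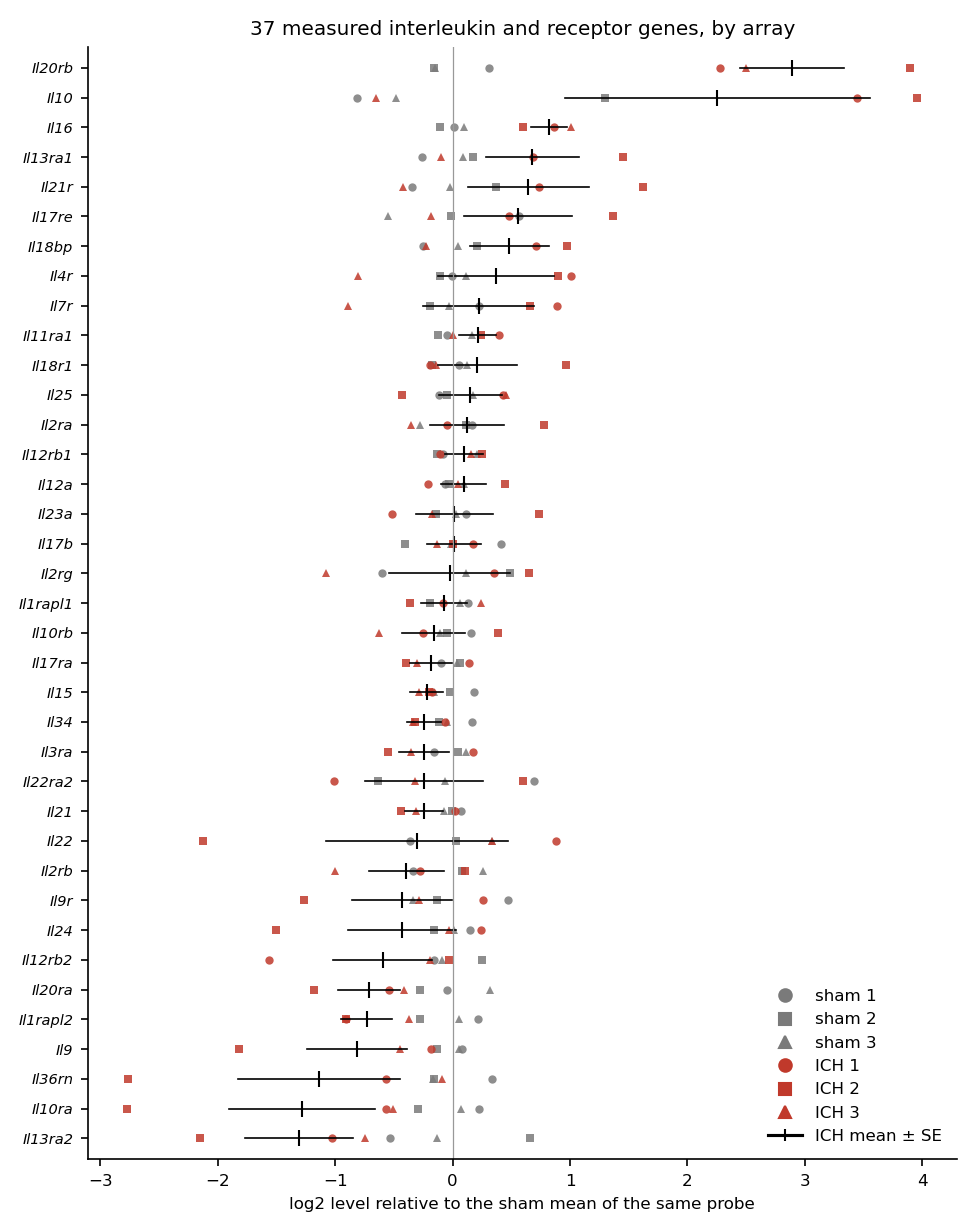
Level of each of the 37 measured genes on each array, on the x axis as log2 relative to the sham mean of the same probe, with 1 gene per line ordered by its difference. Grey symbols are sham arrays, red symbols ICH arrays, and the black mark and line are the ICH mean ± SE of the difference from limma. Il20rb is at the top with all 3 red symbols between 2.27 and 3.89, and ICH 2 (red square) is the array farthest from the sham mean for 23 of 37 genes (62.2%, beside 56.2% of all rows).

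The IL-10 family held the largest fitted differences, those of Il20rb and Il10. Il20rb encodes a chain that pairs with the product of Il20ra, or with that of Il22ra1, to bind IL-20 and IL-24. Its level was 0.31, −0.16 and −0.15 in sham tissue and reached 2.27, 3.89 and 2.50 in ICH tissue. No sham array had the probe well above background and all 3 ICH arrays did. The fitted difference of 2.89 ± 0.44 (limma, adjusted p = 0.195) is thus taken against unmeasured sham signal. Only an approximate bound can be given for the fold. Taking for each sham array the dimmest signal of any probe that still counted as well above background, Il20rb was 4.80-fold higher in ICH. This bound ran from 3.39-fold without ICH 2 to 5.94-fold without ICH 1. It may be too high, as a spot of Il20rb itself with a processed signal of 31.5 on ICH 3 was not well above background.

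The signal behind Il20rb was dim. Each array carries 2 spots of the probe. Their processed signal was 6.24 to 12.4 on the sham arrays, 106 and 154 on ICH 2, and 75.7 and 31.5 on ICH 3, where 1 of the 2 spots was well above background. On ICH 1 the spots read 40.7 and 9883, and the second carried a mark for uneven signal and was left out, so that the ICH 1 value rests on 1 spot. It was the only marked reading among the 726. With the marked spot kept the fitted difference was 4.21, and with normexp background correction, which compresses dim signals, it was 0.71. The tissue RNA was not separated by cell type, so here and for every gene below a change in the number of cells of a type and a change in RNA per cell cannot be told apart.

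Il20ra, the partner chain, was lower in ICH. It stood at −0.04, −0.28 and 0.32 on sham arrays and at −0.54, −1.18 and −0.42 on ICH arrays, with no overlap between the groups, and differed by −0.71 ± 0.26 (limma, adjusted p = 0.317). The difference was −0.44 with normexp background correction and −0.28 with spike-in centring. Of the ligands, Il20 reached measurable signal on no array, and Il24 stood at 0.24, −1.50 and −0.03 in ICH tissue against −0.16 to 0.15 on sham arrays. Il22ra1, the other partner, was likewise measurable on none. Il22ra2, the soluble IL-22 decoy that lies next to Il20ra on the chromosome, overlapped between the groups, at −1.01, 0.60 and −0.32 on ICH arrays and −0.63 to 0.69 on sham arrays.

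Il10, which restrains macrophages and microglia, was seen on few arrays. It was well above background on sham 2, ICH 1 and ICH 2, and stood at −0.81, 1.30 and −0.48 in sham tissue against 3.45, 3.96 and −0.65 in ICH tissue. The ICH arrays were thus split, with ICH 1 and ICH 2 above every sham array and ICH 3 among them, and the difference of 2.25 ± 1.30 did not pass (limma, adjusted p = 0.436). Il10ra, the chain that binds IL-10, was lower on all ICH arrays, at −0.57, −2.77 and −0.51 against −0.30 to 0.22 on sham arrays (difference −1.28 ± 0.63, adjusted p = 0.386). Its size came from ICH 2, where it was not well above background, and without ICH 2 the difference was −0.54. With normexp background correction it was −0.46. Il10rb, the chain shared with the IL-22 and lambda interferon receptors, stood at −0.25, 0.39 and −0.62 on ICH arrays and overlapped with sham. Il22 was at 0.88, −2.12 and 0.34 in ICH tissue, not well above background on ICH 2, and 0.34 was also the highest sham value. Over the family, 2 of 8 measured genes were higher and 6 lower (median −0.27).

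**Figure D2:**
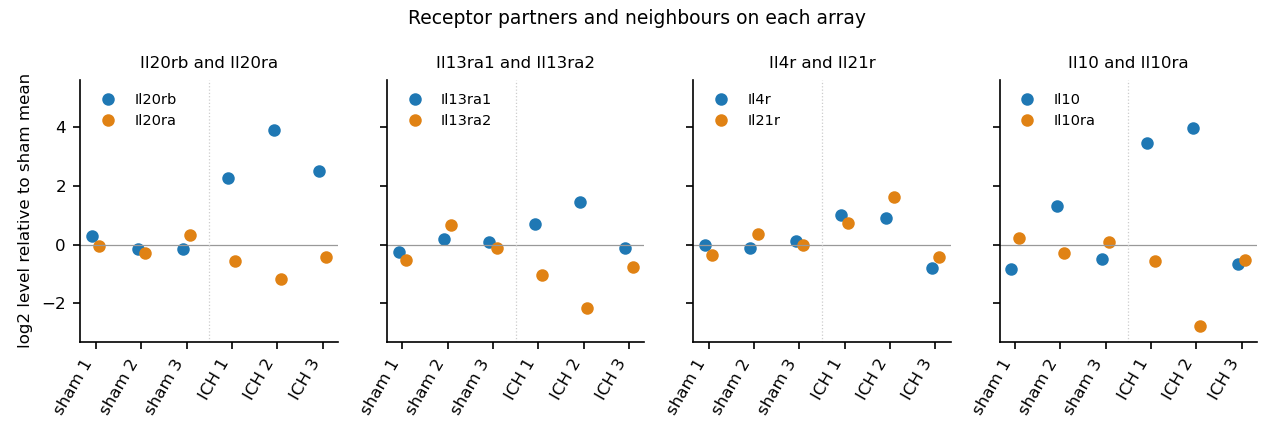
Log2 level relative to the sham mean (y axis) on each of the 6 arrays (x axis) for 4 pairs of genes, with sham arrays left and ICH arrays right of the dotted line. Il20rb, not well above background on any of the sham arrays plotted, is above Il20ra on all 3 ICH arrays, Il13ra1 and Il13ra2 most on ICH 2, Il4r and Il21r are high on ICH 1 and ICH 2 and low on ICH 3, and Il10 is high on ICH 1 and ICH 2 only.

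Of the receptor chains for IL-4 and IL-13, Il13ra2 was the 1 whose groups did not overlap. Il13ra2 encodes a decoy that binds IL-13 tightly, and Il13ra1 the chain that joins Il4r in the signalling receptor. Il13ra2 stood at −0.53, 0.66 and −0.13 in sham tissue and at −1.03, −2.15 and −0.75 in ICH tissue. Every ICH value was under every sham value, and the difference was −1.31 ± 0.46 (limma, adjusted p = 0.313), or −0.74 with normexp background correction. Il13ra1 stood at 0.69, 1.45 and −0.10 in ICH tissue against −0.26 to 0.18 on sham arrays (0.68 ± 0.39, adjusted p = 0.437), high on ICH 1 and ICH 2 and within the sham range on ICH 3. A second probe of Il13ra1 gave 0.46, 0.49 and −1.03 in ICH tissue and a difference of −0.03. Its direction as a group difference is thus not settled by the 2 probes, while both put ICH 1 and ICH 2 above ICH 3.

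Il4r and Il21r, receptor chains of IL-4 and IL-21 that are direct neighbours on the chromosome, shared that split. Il4r stood at 1.01, 0.90 and −0.81 in ICH tissue against −0.11 to 0.11 on sham arrays, and a second probe gave 1.12, 1.32 and −0.41. Il21r stood at 0.74, 1.62 and −0.42 against −0.34 to 0.37 on sham arrays. The differences over all 3 ICH arrays were 0.37 ± 0.49 for Il4r and 0.65 ± 0.52 for Il21r (limma, adjusted p = 0.714 and 0.549). Il7r, the receptor of the lymphocyte growth factor IL-7, stood at 0.89, 0.66 and −0.89 on ICH arrays and Il18bp, a soluble trap for IL-18, at 0.71, 0.97 and −0.23, while a second probe of Il7r gave 0.27, −0.46 and −1.20.

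In all, 6 of the 37 genes had ICH 1 and ICH 2 above every sham array and ICH 3 under the sham mean: Il10, Il13ra1, Il18bp, Il21r, Il4r and Il7r. That is 16.2% of the measured genes, beside 5.94% of all rows, and the pattern was chosen after the values were seen. For Il7r it rests on 1 of its 2 probes. Il10 passed the filter only because it was well above background on ICH 1 and ICH 2, the arrays that are high in the pattern. Without ICH 3, 8 of the 37 were higher at an unadjusted p under 0.05 (these 6 with Il20rb and Il16), where 9.63% of all rows were, and none passed when adjusted. As the 6 were picked for a low ICH 3, that count restates the pattern and is no support for it. ICH 3 was under every sham array for 19 of the 37 genes, or 51.4%, beside 37.5% of all rows.

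The regions just before the start of 5 genes are shown to set the 2 genes that were higher on all ICH arrays, Il20rb and Il16, beside 3 that were high on ICH 1 and ICH 2. Each is the 250 bases before the annotated start, 5′ to 3′ on the gene's strand, from RefSeq on GRCr8, with capitals for matches to any of 4 motifs on either strand: TTC and GAA with 3 bases between them (bound by STAT factors), the same with 4 bases between them (the spacing STAT6 prefers), TGANTCA (AP-1), and GGG and CC with 5 bases between them (a loose form of the NF-kB site). These forms can overlap one another. The windows lie at chr8:109888964-109889213, minus strand for Il20rb, chr1:147116743-147116992, minus strand for Il16, chr1:189545525-189545774, plus strand for Il4r, chr1:189598503-189598752, plus strand for Il21r and chrX:120214355-120214604, plus strand for Il13ra1.
Il20rb: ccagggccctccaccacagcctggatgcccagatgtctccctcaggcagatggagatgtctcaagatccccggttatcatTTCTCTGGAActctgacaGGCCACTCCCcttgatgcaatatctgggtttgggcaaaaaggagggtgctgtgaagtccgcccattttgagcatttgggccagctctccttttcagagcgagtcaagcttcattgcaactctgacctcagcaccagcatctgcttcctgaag
Il16: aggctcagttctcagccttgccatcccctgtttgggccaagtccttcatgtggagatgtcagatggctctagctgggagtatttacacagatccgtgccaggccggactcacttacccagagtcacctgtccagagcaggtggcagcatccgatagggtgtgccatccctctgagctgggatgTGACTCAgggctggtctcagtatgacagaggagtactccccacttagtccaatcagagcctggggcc
Il4r: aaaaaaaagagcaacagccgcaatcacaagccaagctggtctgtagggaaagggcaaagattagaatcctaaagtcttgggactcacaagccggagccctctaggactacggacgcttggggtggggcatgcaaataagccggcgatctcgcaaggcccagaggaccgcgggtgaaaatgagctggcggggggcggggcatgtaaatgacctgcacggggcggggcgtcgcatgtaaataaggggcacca
Il21r: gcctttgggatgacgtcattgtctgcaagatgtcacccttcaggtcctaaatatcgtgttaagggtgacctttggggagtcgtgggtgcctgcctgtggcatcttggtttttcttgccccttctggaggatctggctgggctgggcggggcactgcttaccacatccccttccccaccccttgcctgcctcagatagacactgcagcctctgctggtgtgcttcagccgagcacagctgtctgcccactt
Il13ra1: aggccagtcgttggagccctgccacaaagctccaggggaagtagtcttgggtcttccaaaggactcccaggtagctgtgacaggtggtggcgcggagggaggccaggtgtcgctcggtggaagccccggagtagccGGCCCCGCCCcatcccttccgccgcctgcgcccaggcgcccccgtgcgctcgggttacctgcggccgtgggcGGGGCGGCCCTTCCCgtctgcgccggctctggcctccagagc

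The window of Il20rb held TTCTCTGGAA 170 bases and GGCCACTCCC 152 bases before the start, and that of Il16 held TGACTCA 67 bases before it. The window of Il13ra1 held 3 matches to the loose NF-kB form, 114, 42 and 37 bases before the start, the last 2 overlapping, and those of Il4r and Il21r held none of the 4 motifs. Windows were given for 43 of the 58 genes, 44 in all. Among them the STAT form was in 11.4%, the STAT6 spacing in 15.9%, the AP-1 form in 6.82% and the NF-kB form in 47.7%, against 7.67%, 6.25%, 6.34% and 42.3% of 33469 windows of all genes. The STAT6 spacing and the NF-kB form were also in the window of Il18bp, another gene high on ICH 1 and ICH 2. Both were likewise in that of Il9, and the NF-kB form was in those of Il10ra and Il15. The AP-1 form was also in those of Il15 and Il9. Il9, Il10ra and Il15 were lower on all ICH arrays. A match says only that the letters are present.

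The common gamma chain branch serves T, B and natural killer cells. Il2rg, the shared chain itself, stood at −0.60, 0.48 and 0.12 on sham arrays and 0.36, 0.65 and −1.08 on ICH arrays, and Il2rb at −0.34, 0.08 and 0.26 and then −0.28, 0.10 and −1.003. In both, sham 1 and ICH 3 were the lowest of their group. The 10 measured T and natural killer cell markers (10 of 10 on the list) had array medians of −1.85, 0.98 and 0.57 in sham tissue and of −0.36, 0.84 and −1.23 in ICH tissue. The part of such cells in the values of Il2rg and Il2rb was not tested. Il2ra, the inducible IL-2 receptor chain, was at 0.78 on ICH 2 and within −0.36 to 0.16 elsewhere.

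Among the gamma chain cytokines, Il15, made by glia and myeloid cells, lay lower on all ICH arrays by a small amount. It stood at 0.18, −0.02 and −0.16 on sham arrays and −0.18, −0.20 and −0.29 on ICH arrays (−0.22 ± 0.14, adjusted p = 0.469), and the sign turned to 0.21 when arrays were centred on spike-in probes. Il9, a T cell and mast cell cytokine, stood at −0.13 to 0.08 on sham arrays and at −0.19, −1.82 and −0.45 on ICH arrays, not well above background on ICH 2, and its difference of −0.82 ± 0.43 (adjusted p = 0.405) was −0.32 without ICH 2 and −0.49 with normexp background correction. Its receptor Il9r was at 0.26, −1.26 and −0.29 and overlapped with sham. Il21 differed by −0.24 ± 0.16. The branch, with Il4r, Il13ra1 and Il13ra2, had 5 of 12 measured genes higher and 7 lower (median −0.12).

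Il16 was the 1 measured cytokine gene higher on all ICH arrays. It encodes a precursor cut to a chemoattractant for cells that bear CD4, and a longer form is known in neurons. Its level was 0.01, −0.11 and 0.10 in sham tissue and 0.86, 0.60 and 1.004 in ICH tissue, and ICH 3 was the highest of the 6 arrays. The difference was 0.82 ± 0.16, a fold of 1.77 (limma, adjusted p = 0.252), it ran from 0.73 to 0.93 with 1 array left out, and it was 1.25 when arrays were centred on spike-in probes. Cd4 stood at −0.74, −0.67 and −0.66 on ICH arrays, under all sham values. On the same arrays the medians of cortical neuron markers were 0.91, 1.30 and 0.80, and those of striatal markers −0.84, −1.48 and −1.29. The part of such cells in the value of Il16 was not tested.

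Il34, a ligand of the microglial receptor Csf1r that neurons make, differed by −0.24 ± 0.15 with overlap, at −0.07, −0.32 and −0.34 on ICH arrays against −0.12 to 0.16. Csf1r itself, outside the gene set, stood at 0.33, 0.32 and −0.40. Il11ra1, the IL-11 receptor chain, differed by 0.21 ± 0.16 with values of 0.39, 0.24 and 0.01 on ICH arrays.

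In the IL-1 receptor relatives and the IL-36 branch, only Il1rapl2 separated the groups among the 5 measured. It is X-linked and, like Il1rapl1, encodes a synaptic membrane protein with the build of an IL-1 receptor. It stood at 0.22, −0.27 and 0.05 in sham tissue and −0.91, −0.91 and −0.37 in ICH tissue, without overlap (−0.73 ± 0.22, 1.66-fold lower, limma adjusted p = 0.301). With spike-in centring the difference was −0.30. Il1rapl1 did not separate, at −0.08, −0.36 and 0.24 on ICH arrays and −0.19 to 0.13 on sham arrays. Neuron markers also stood apart, and 8 of 8 striatal markers were lower. Of these, 6 were at an unadjusted p under 0.05 and 5 did not overlap, beside 8.56% and 16.5% of all rows. In turn 6 of 6 measured cortical markers were higher, 4 of them at an unadjusted p under 0.05, beside 6.15% of all rows. Drd1 differed by −1.76 and Neurod6 by 2.04. Sham 3 stood apart from the other sham arrays in the striatal markers, whose array medians were 0.40, 0.45 and −0.85 in sham tissue and −0.84, −1.48 and −1.29 in ICH tissue. Their part in the value of Il1rapl2 was not tested.

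The IL-36 ligands Il36a, Il36b and Il36g and the related Il1f10 were measurable on no array, and their receptor Il1rl2 only on sham 3. The antagonist Il36rn was measured with 1 probe, at −0.56, −2.76 and −0.09 on ICH arrays against −0.17 to 0.33 (−1.14 ± 0.69, adjusted p = 0.453), while its second probe was measurable on none. ICH 2 was the farthest from sham, and ICH 1 was also under every sham value. Il18r1, the IL-18 receptor chain, was at 0.97 on ICH 2 and at −0.19 and −0.14 on ICH 1 and ICH 3.

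In the IL-17 family, known from T helper and innate lymphoid cells, 4 of 9 genes were measured. Il17a was well above background on sham 1 and ICH 1, Il17f on ICH 2 alone and Il17c on no array. Il17ra, the shared receptor chain, stood at 0.14, −0.40 and −0.30 on ICH arrays and −0.10 to 0.06 on sham arrays. Il17re, which serves IL-17C, was at 1.37 on ICH 2 and otherwise within the sham range of −0.55 to 0.56. Il25 differed by 0.15 ± 0.27, with ICH 2 at −0.44 and ICH 1 and ICH 3 at 0.43 and 0.45, and Il17b by 0.01 ± 0.23. Il17rb was well above background on ICH 1 alone and Il17rd on sham 2 alone.

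In the IL-12 and IL-23 branch, which drives T helper and natural killer responses, Il12a, Il12rb1 and Il23a differed by 0.10 ± 0.19, 0.10 ± 0.16 and 0.01 ± 0.33, each with overlap between the groups. Il12rb2 stood at −1.57 on ICH 1 and at −0.03 and −0.20 on ICH 2 and ICH 3. Il12b was well above background on sham 1 only. In the common beta chain branch Il3ra was the 1 gene measured (−0.24 ± 0.22, and −0.01 with its second probe), Il5 was seen on ICH 1 and ICH 3, Il3 on sham 1 and ICH 2, and Il5ra on no array. Il2 and Il4 were each well above background on sham 1 alone, and Il13, Il7 and Il31ra on none. In total 11 of the 21 genes not measured were seen on 0 arrays, 7 on 1 and 3 on 2.

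**Figure D3:**
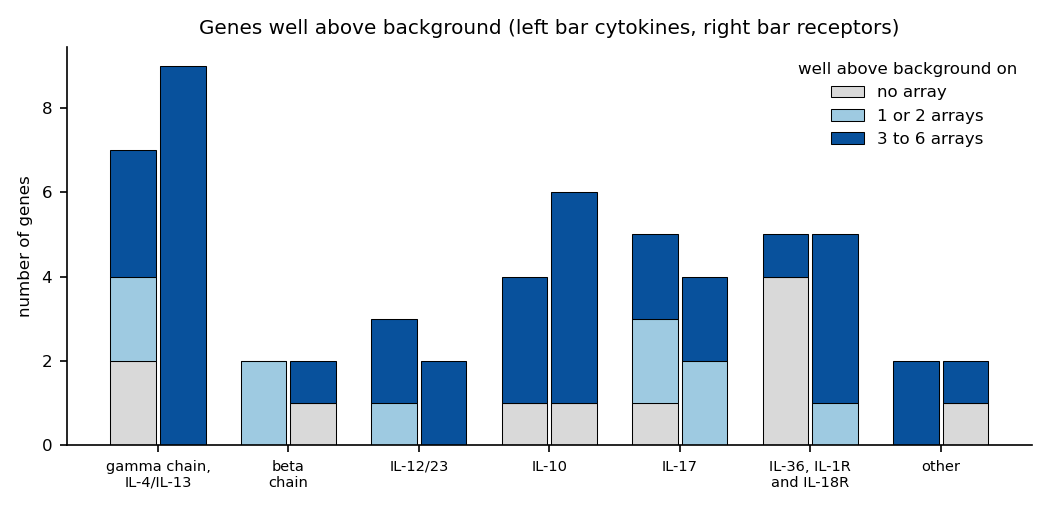
Number of genes in each family (y axis) by the number of arrays on which they were well above background, with cytokines in the left bar and receptors or binding proteins in the right bar of each family (x axis). Dark blue is 3 to 6 arrays, light blue 1 or 2 and grey none, and the receptor bar of the gamma chain and IL-4/IL-13 family is dark throughout.

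JAK and STAT genes, which carry the interleukin signal onward, were higher more often than lower, without passing. Of 19 measured JAK, STAT and feedback genes (21 listed) 13 were higher, 4 of them at an unadjusted p under 0.05, beside 6.15% of all rows. The other 6 were lower, 0 of them so, beside 8.56% of all rows. The median was 0.21, beside −0.04 over all rows. The kinase gene Jak3, whose product binds the common gamma chain, stood at 0.98, 1.23 and 0.36 on ICH arrays against −0.60 to 0.49 on sham arrays (0.86 ± 0.35, limma adjusted p = 0.339), and Stat6, the factor used by Il4r, at 0.37, 0.86 and 0.66 against −0.20 to 0.18 (0.63 ± 0.18). Of 8 measured IL-17 adaptors and induced genes 6 were higher, 3 of them at an unadjusted p under 0.05 (median 0.88), beside 6.15% of all rows. The list's array medians were 0.82, 1.38 and 0.01 in ICH tissue, high on ICH 1 and ICH 2 as for the myeloid markers below. Lcn2 stood at 4.78, 5.61 and 0.21 (3.53 ± 1.37), above all sham values by little on ICH 3, and the factor gene Cebpd, at 1.01, 2.07 and 0.49, by 1.19 ± 0.39. These genes also answer to other inflammatory signals.

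Of 8 measured genes induced by IL-4 and IL-13, 4 were higher and 4 lower, with Arg1 at 1.61 ± 0.29 and the chemokine gene Ccl17 at −0.60 ± 0.21 the 2 at an unadjusted p under 0.05. Of 10 receptor partners and sister cytokines 8 were higher, and only Ebi3, a subunit of IL-27 and IL-35, was so at an unadjusted p under 0.05 (0.44 ± 0.15). Of 6 measured helper T cell and innate lymphoid factors 5 were higher, with Foxp3 at 1.91 ± 0.18 and Gata3 at 2.00 ± 0.67 at an unadjusted p under 0.05. Gata3 was well above background on 5 of the 6 arrays and stood at −1.22, 0.49 and 0.73 in sham tissue. Of the 10 T and natural killer cell markers 2 were higher and 8 lower, or 8 and 2 with spike-in centring. Of all rows, 6.15% were higher and 8.56% lower at an unadjusted p under 0.05. No gene of these 5 lists passed when adjusted over all rows. The counts of higher and lower genes depend on the zero point. With spike-in centring 7 of the IL-4 and IL-13 induced genes were higher and 1 lower. The same centring gave 18 and 1 for the JAK, STAT and feedback genes and 7 and 1 for the IL-17 list. It gave 10 and 0 for the receptor partners and 6 and 0 for the helper T cell factors.

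Markers of other cells moved on the same arrays as several interleukin genes. The 9 activated myeloid and monocyte markers had array medians of −0.29, 0.27 and 0.07 in sham tissue and of 1.504, 2.16 and −0.57 in ICH tissue. ICH 1 and ICH 2 were thus high and ICH 3 low, as for Il4r, Il10, Il13ra1, Il18bp, Il21r and 1 of the 2 probes of Il7r, and the part of such cells in those genes was not tested. All 9 were well above background on all 6 arrays, with 8 higher and 1 (Lyz2) lower. The neutrophil markers Elane and Mmp8 were measurable on no array, and Cxcr2 on 2. The 4 neutrophil markers measured had medians of 1.81, 3.20 and −0.16 on ICH arrays and −0.59 to 0.74 on sham arrays. Of these 3 were higher and 1 (Ngp) lower, at 0.06, −1.73 and −0.59 on ICH arrays. Medians on ICH arrays were −0.37 to −0.18 for 6 microglial markers, −0.38 to 0.36 for 6 astrocyte markers, −0.65 to 0.09 for 5 oligodendrocyte markers, −0.25 to 0.84 for 3 B cell markers, −0.37 to 0.11 for 4 mast cell markers, −0.77 to −0.26 for 4 endothelial markers and 0.44 to 1.01 for 3 erythroid markers. The 6 measured markers of neurons in general, with medians of −0.04 to 0.15, were well above background on all 6 arrays. Some of these medians cover markers that separated the groups. Of microglial markers 3 were higher with overlap and 3 (P2ry12, Tmem119 and Aif1) lay below all sham values. Of mast cell markers, Kit differed by 1.26 ± 0.22 and Mcpt1 by −1.19 ± 0.15 without overlap, while Fcer1a and Tpsab1 overlapped. Of endothelial markers 3 lay below all sham values, and Flt1 overlapped. With spike-in centring the microglial marker Aif1 and the endothelial marker Cldn5 turned from lower to higher. So did 4 of 5 oligodendrocyte and 2 of 6 astrocyte markers. Of general neuron markers 3 lay above and 2 below all sham values, beside 11.0% and 16.5% of all rows.

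**Figure D4:**
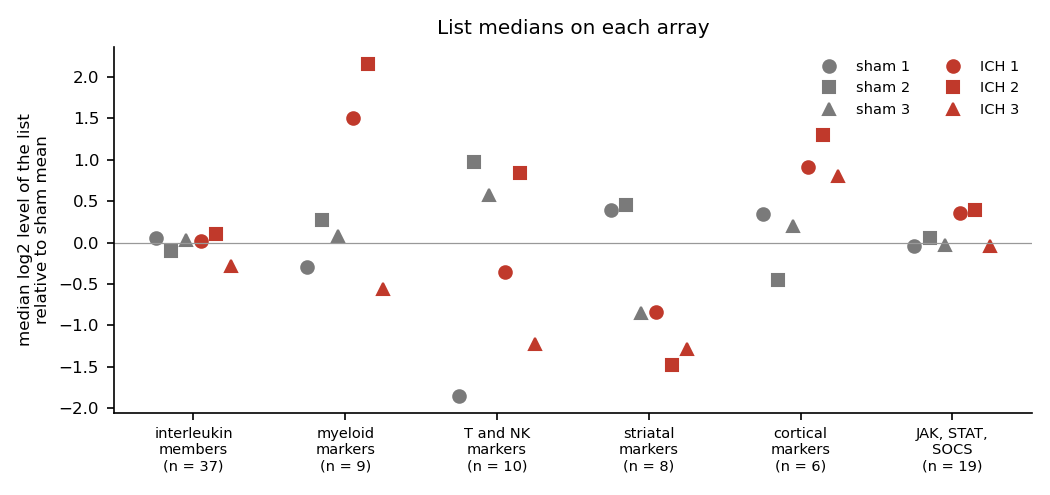
Median log2 level of 6 gene lists (x axis, with the number of genes measured) on each array, relative to the sham mean of each gene (y axis). Grey symbols are sham and red symbols ICH arrays. The interleukin genes stay between −0.29 and 0.10, while myeloid markers reach 2.16 on ICH 2 and −0.57 on ICH 3.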

How the data were processed

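Each sample was hybridised to 1 single-colour Agilent rat array, and all 6 arrays share 1 slide. Per the file headers, Agilent Feature Extraction 11.5.1.1 produced the deposited intensity values, with its own background and trend correction inside an array (the submitters' processing notes name version 10.7). The deposited log2 table equals, for all 63 probes within 0.001, the values used here up to 1 constant per array of 0.28 to 0.32 (medians of its columns −2.75 to −2.58), so its scale is log2 with centring near the 75th percentile, a step that no source states.

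Control spots and unevenly lit spots were removed, each array's 75th percentile was subtracted from its log2 values, and replicate spots were averaged. A probe was called well above background where at least 0.5 of its spots were so marked. Probes passing on at least 3 of 6 arrays entered a limma fit (version 3.58.1, R 4.3.3, no covariate, 6.12 degrees of freedom, Benjamini-Hochberg), with 1 probe per symbol, the brightest. Of 30367 probes 18355 had 1 symbol in the GRCr8 RefSeq table, 0 several and 12012 none, and 4 probes with a missing value were not tested. Each p-value sets a group difference against the spread between samples within the groups, with row variances drawn by limma toward a common value. As the labels do not say whether each sample is 1 animal, what that spread covers is not known. Tables used Python 3.11.15.

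Genes shown in full were those at an unadjusted p under 0.05, without overlap, among the 10 brightest or the 5 largest differences in each direction, or with a bound, and of the other lists the 2 largest differences in each direction at an unadjusted p under 0.05. Csf1r was added after its values were seen. The gene set, the pathway and marker lists and this rule were chosen with earlier results of these data known. Alternatives were normexp background correction on the median spot signal, quantile, median and spike-in centring, the deposited values, other filters, marked spots kept, probe means, a variance trend, array weights, blocks and leaving out each array.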

Additional observations from a re-analysis of the deposited data

How the results depend on the processing

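No interleukin gene passed under any alternative, and the lowest adjusted p was 0.0605, for Il20rb with array quality weights (its range over the alternatives was 0.0605 to 0.579). Over all rows, limma called 3 with normexp, 33 with spike-in centring, 2 with the filter on all 6 arrays, 3 with a variance trend, 6 with array weights and 0 to 36 with 1 array left out (8 without ICH 2, 36 without ICH 3). Spike-in centring moved the median of all rows from −0.04 to 0.39. It gave 4 interleukin genes higher and 0 lower at an unadjusted p under 0.05, where 22.7% and 0.825% of all rows were, 4 above all sham values and 0 below them, a median of 0.36, and 0.21 for Il15. The filter on all 6 arrays gave 1 higher, where 6.69% of all rows were, and 1 above, as Il20rb was left out. Those lower numbered 5 with normexp, where 9.86% of all rows were lower, and 5 without a filter, where 7.06% were. Without a filter 58 genes were counted, and 10 of them lay below all sham values. With 1 array left out, 2 to 8 interleukin genes were higher and 1 to 5 lower, 2 to 9 lay above and 6 to 10 below all sham values, and the median ran from −0.16 to −0.00085. The counts of 8 and 9 were without ICH 3, 5 and 10 without ICH 1, 1 without sham 1 or sham 3, and 4 lay above without ICH 2. Of all 22179 rows, 682 were higher and 663 lower at an unadjusted p under 0.05 without sham 1. Without ICH 3, 2135 were higher and 2550 lower, so the whole array moved as well. Groups of fewer arrays also separate more easily. No share of all rows without overlap is given for the alternatives, so their counts above and below are not set against the array.

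With the replicate block 0 rows passed. At an unadjusted p under 0.05, 2 interleukin genes were then higher and 3 lower, where 4.13% and 6.73% of all rows were. Deviations of same-numbered arrays correlated at −0.19, −0.01 and 0.07, so the numbers are not shown to pair the arrays. Sham 1 to 3 and ICH 1 lie in 1 row of the slide, and blocking on the row leaves that comparison, with a median of 0.017, 2.27 for Il20rb, −0.57 for Il10ra and −0.19 for Il9. Dim probes limit Il20rb, Il10 and the 21 genes not measured.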
